A study of Rattus norvegicus with 8 samples.

Results

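Integrins and laminins are receptors and ligands of cell adhesion, and the 35 genes described here encode their subunits: 25 integrin alpha or beta subunits and 10 laminin chains. They were picked by gene symbol from the 32545 genes of the normalized count table (symbols beginning Itga or Itgb and naming an integrin subunit, or beginning Lama, Lamb or Lamc and ending in a number). All 35 symbols found in this way also passed the filter of at least 10 normalized read counts in at least 2 libraries, as did 16478 genes in all. Itgad and Lama3, which the rule would also take, were not analysed here. The subunits were ordered by role into 7 leukocyte integrins, 17 matrix integrins, 1 platelet integrin and 10 laminins.

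The RNA came from whole sciatic nerve of outbred female Sprague Dawley rats between 3 and 6 months of age. In 3 rats a donor segment of another, not tissue-matched rat was sewn into the severed nerve and its cut ends were fused with polyethylene glycol (PEG-fused PNAs, here PEG). In 3 negative control rats the same grafting was done, with methylene blue and sutures but no PEG (NC PNAs, NC). Both kinds of peripheral nerve allograft (PNA) were taken out at 14 days PO, that is, post-operatively, with no immunosuppression, and 2 nerves of unoperated rats (Unop) served as baseline. Each library is 1 animal. A PNA holds cells of donor and host, which the counts do not tell apart, and Unop nerves had no surgery at all, so a difference from Unop carries cutting, suturing, grafting and the time since then together.

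An integrin is a pair of an alpha and a beta chain in the cell membrane, and the pairing sets the ligand. Leukocytes carry integrins built on Itgb2 or Itgb7, which hold them to endothelium, to other cells or to complement, whereas most other cells use partners of Itgb1 or Itgav to grip collagen, fibronectin, vitronectin and laminin. Laminins are cross-shaped proteins of an alpha, a beta and a gamma chain that build basement membranes. In a nerve, each Schwann cell with its axon lies in a tube of laminin-rich basement membrane, and the Schwann cell holds on to it through laminin-binding integrins and through dystroglycan, which is needed for sorting and myelinating axons.

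Libraries held 32472925 to 39959620 reads on genes. Fold changes below are differences of group means of log2(normalized read count + 1), given ± SE from 1 limma fit of the 8 libraries, with p-values adjusted over the 16478 genes tested (Benjamini-Hochberg). A gene was called when adjusted p was under 0.05, and counts of a group are listed in the order of its library numbers. In PEG against NC, 15 of the 35 subunits were called higher and 6 lower, beside 15.0% and 13.9% of all genes tested. In PEG against Unop, 15 were higher and 13 lower (29.1% and 28.6% of all genes), and in NC against Unop 12 were higher and 16 lower (32.2% and 32.3%). With the further condition of a log2 fold change beyond 1 in size, 3 subunits were higher and 6 lower in PEG against NC (4.41% and 7.14% of all genes), 10 and 8 in PEG against Unop (16.7% and 15.6%), and 10 and 9 in NC against Unop (19.6% and 19.0%). The same shares of all genes, by comparison and direction, are to be set beside every count of called genes of a role or list below. The 3 comparisons share libraries, and both against Unop rest on the same 2 nerves. Libraries of PEG and NC did not overlap in 25 subunits, 18 of them higher in PEG and 7 lower, beside 25.6% and 23.3% of genes.

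**Figure D1:**
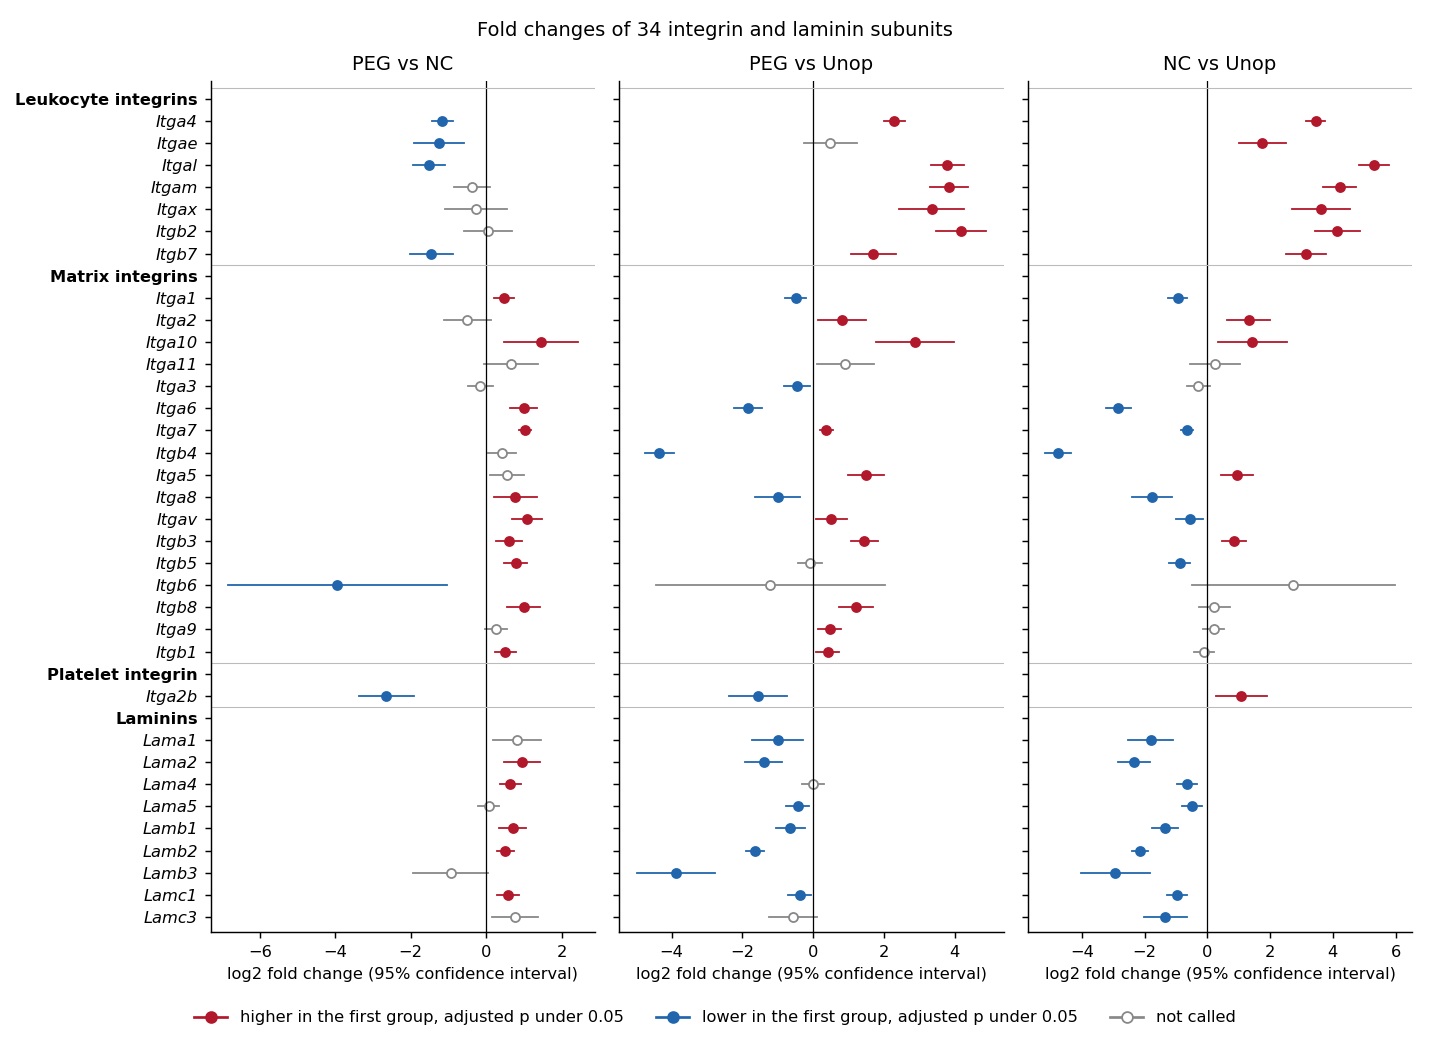
Log2 fold changes (points) and their 95% confidence intervals (lines) for 34 of the 35 subunits in PEG against NC, PEG against Unop and NC against Unop, grouped by role, with filled points for subunits called at an adjusted p under 0.05. In PEG against NC the called leukocyte integrins and Itga2b lie left of 0 and the called laminins right of 0, and Itgb6 has the widest interval.

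Markers of cell types were read beside the subunits. Schwann cell genes were present in every library, with Sox10, the lineage's transcription factor, at 1196 to 4257 normalized read counts. Their summed count was 85936 to 97675 in PEG, 34713 to 86585 in NC and 2200140.0 to 2583631 in Unop, and 5 of 10 were higher in PEG than in NC. Of 12 pan-leukocyte genes 11 were lower in PEG than in NC, of 10 T cell genes all 10, and of 9 myeloid genes 6. Fibroblast genes were higher in 4 of 8 and mural cell genes in 4 of 5, and 1 of 6 endothelial genes was lower. In bulk tissue, fewer cells of a type and less RNA per cell cannot be told apart, and the part of cell composition in the differences below was not tested. Skeletal muscle genes stood apart in NC 1 and NC 3, where the sum of 9 such genes was 796402 and 293332, against at most 40541 in the other 6 libraries. Adipocyte genes stood apart in Unop, with a sum of 28768 to 53066 against at most 1367 in PNAs.

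In PEG against NC, 4 of the 7 leukocyte integrin subunits fell, none rose (none at an unadjusted p under 0.05 in limma and none in edgeR or DESeq2), and 3 were not called, with a median log2 fold change of -1.16 beside 0.002 over all genes tested. The 4 were Itgal, the homing chain Itga4, and both chains of an integrin that binds E-cadherin, Itgae and Itgb7. Itgal pairs with Itgb2 to form a receptor for Icam1 that leukocytes use to stick to other cells. Its normalized read count was 4879, 3301 and 4540.3 in PEG, 11019, 12354 and 12662 in NC, and 368 and 248 in Unop. No PEG library reached the lowest NC library, and counts were 2.87-fold lower in PEG (log2 fold change -1.52 ± 0.18, adjusted p = 0.00121). Itga4 pairs with Itgb1 or Itgb7 and binds Vcam1 on inflamed endothelium. Counts of Itga4 were 689, 702 and 843 in PEG, 1609, 1641 and 1727 in NC, and 137 and 165 in Unop. The groups were again apart, by 2.23-fold (log2 fold change -1.16 ± 0.12, adjusted p = 0.000667).

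Itgae, which pairs with Itgb7 to bind E-cadherin and marks T cells that stay in tissue, had 691, 397 and 570.3 in PEG, 915, 1983 and 1181 in NC, and 394 and 374 in Unop. All PEG libraries lay below all NC libraries, although PEG 1 and NC 1 were close (log2 fold change -1.26 ± 0.29, adjusted p = 0.0147), and the call was lost with adjusted p = 0.0545 without PEG 2. Itgb7 had 570.03, 709 and 561 in PEG, 1576, 2431 and 1222 in NC, and 220.01 and 159 in Unop, with no overlap and a 2.74-fold difference (log2 fold change -1.46 ± 0.25, adjusted p = 0.00429). The calls of Itgal, Itga4 and Itgb7 held in every fit that left out 1 library.

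Upstream sequence is shown for the leukocyte integrins that fell together and have an entry among the RefSeq promoters used here: Itga4, Itgae and Itgb7. Each line gives the 250 bases before the annotated start, 5′ to 3′ on the gene's strand, in the rat assembly GRCr8, which is a later build than the Rnor 6.0 of the counts. Capitals mark the 6 letters TGTGGT, the core of sites bound by RUNX factors of blood cells, or their reverse complement ACCACA.
Itga4, chr3:84569765-84570014, plus strand: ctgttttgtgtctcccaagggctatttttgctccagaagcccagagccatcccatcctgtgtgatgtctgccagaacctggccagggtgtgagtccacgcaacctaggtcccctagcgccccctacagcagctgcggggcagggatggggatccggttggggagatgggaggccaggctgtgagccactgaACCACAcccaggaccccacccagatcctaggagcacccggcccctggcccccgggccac
Itgae, chr10:58203118-58203367, plus strand: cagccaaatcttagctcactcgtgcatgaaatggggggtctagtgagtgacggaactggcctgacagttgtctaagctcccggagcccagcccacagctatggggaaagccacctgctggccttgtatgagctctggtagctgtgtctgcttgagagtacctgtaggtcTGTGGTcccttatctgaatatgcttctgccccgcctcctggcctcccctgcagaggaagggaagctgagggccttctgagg
Itgb7, chr7:135239072-135239321, minus strand: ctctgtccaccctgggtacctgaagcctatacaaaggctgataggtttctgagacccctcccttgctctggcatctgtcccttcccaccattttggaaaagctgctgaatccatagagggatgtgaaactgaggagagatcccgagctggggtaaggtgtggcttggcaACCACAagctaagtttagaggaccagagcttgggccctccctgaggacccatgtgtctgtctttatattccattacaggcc
On either strand, TGTGGT stood in these windows of 14.5% of all 33469 promoters, and in 6 of the 27 members with an entry (Itga2b, Itga4, Itga9, Itgae, Itgam and Itgb7). Among leukocyte integrins it was found in 4 of 5: beside the 3 shown, Itgam had it and Itgax had not, and neither of these was called in PEG against NC. AGGAAG, a core of ETS sites, stood in 10 of the 27 (29.5% of all promoters) and in 2 of the 5, and GGGCGG, a core of Sp1 sites, in 14 of the 27 (30.5%) and in 1 of the 5. No match of one motif overlapped a match of another in these leukocyte integrin windows. The motifs were chosen after these promoters and the counts had been seen, and a match is a run of letters, not a site shown to be bound.

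**Figure D2:**
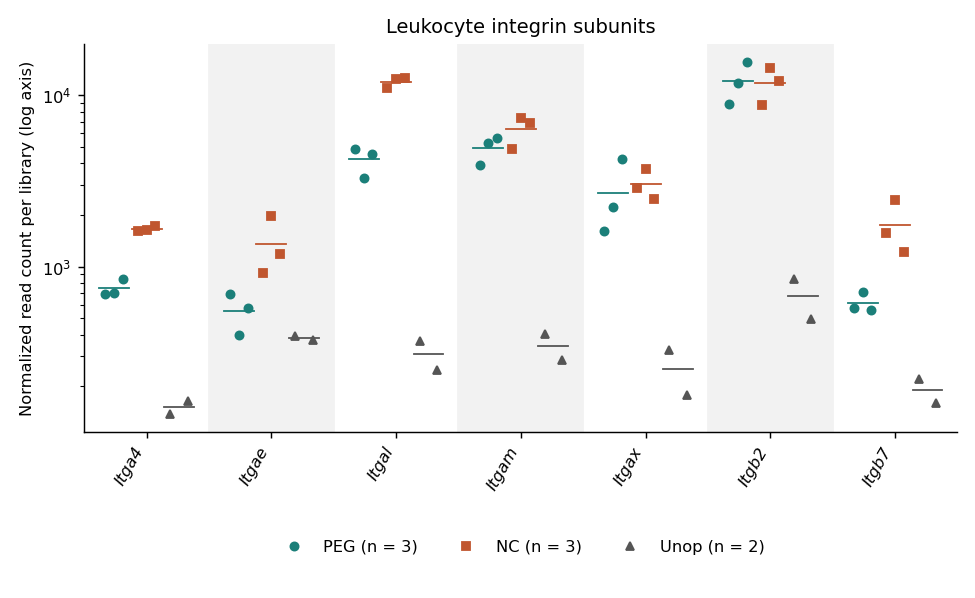
Normalized read counts (log axis) of the 7 leukocyte integrin subunits in each library, with 3 PEG, 3 NC and 2 Unop libraries as points and group means as bars. PEG lies below NC for Itga4, Itgae, Itgal and Itgb7, overlaps NC for Itgam, Itgax and Itgb2, and lies above Unop for all 7.

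The subunits of the myeloid integrins were not called in PEG against NC. Itgam and Itgax pair with Itgb2 into the complement receptors of macrophages, neutrophils and dendritic cells. Itgam had 3899, 5235 and 5635 in PEG, 4886, 7398 and 6862 in NC, and 401 and 285 in Unop. PEG and NC overlapped (log2 fold change -0.37 ± 0.21, adjusted p = 0.214, 95% confidence interval -0.84 to 0.11). Itgax overlapped as well (log2 fold change -0.27 ± 0.36, adjusted p = 0.605, 95% confidence interval -1.10 to 0.55). Itgb2, the beta chain that Itgal, Itgam and Itgax share, had 8932, 11713 and 15708 in PEG 1 to PEG 3 and 8747, 14368 and 12043 in NC 1 to NC 3. PEG 1 lay near the bottom of the NC range and PEG 3 above it (log2 fold change 0.04 ± 0.28, adjusted p = 0.932, 95% confidence interval -0.59 to 0.67).

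Against Unop, all 7 leukocyte subunits were higher in NC and 6 in PEG, with median log2 fold changes of 3.62 and 3.35 beside 0.022 and 0.013 over all genes. Itgal, at 368 and 248 in the unoperated nerves, was 39.6-fold higher in NC (log2 fold change 5.31 ± 0.20, adjusted p = 7.22e-07) and 13.8-fold higher in PEG (log2 fold change 3.79 ± 0.20, adjusted p = 3.21e-06). Itga4 was 10.9-fold higher in NC (log2 fold change 3.45 ± 0.13, adjusted p = 7.22e-07) and 4.90-fold higher in PEG (log2 fold change 2.29 ± 0.13, adjusted p = 4.25e-06). Itgam was 18.5-fold higher in NC (log2 fold change 4.21 ± 0.23, adjusted p = 2.24e-06) and 14.3-fold higher in PEG (log2 fold change 3.84 ± 0.23, adjusted p = 5.42e-06). Itgae was called in NC (log2 fold change 1.75 ± 0.33, adjusted p = 0.00167) and not in PEG (log2 fold change 0.49 ± 0.33, adjusted p = 0.23), where PEG 2 at 397 stood beside 394 and 374 in Unop. The pan-leukocyte sum was likewise lowest in Unop, at 74759 to 99009.9 in PEG, 167920.1 to 230002 in NC and 37174 to 39447 in Unop. Of its 12 genes, 10 were higher than Unop in PEG and 11 in NC. Cd48, at 21041 and 23240 in Unop, was lower in PEG (log2 fold change -1.25, adjusted p = 6.64e-05) and in NC (-0.88, adjusted p = 0.000358). The sum is thus a poor measure of the rise of the other genes. The part of leukocyte content in the subunits was not tested. The counts of 4, 6 and 7 called leukocyte subunits were the same without NC 1 and NC 3.

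The proteins that leukocyte integrins bind gave 5 of 9 genes lower and 1 higher in PEG against NC. Vcam1, the endothelial ligand of Itga4, had 1836, 1141 and 1145 in PEG, 5374, 6109 and 5595 in NC, and 1632 and 1276 in Unop, with PEG and NC apart (log2 fold change -2.09 ± 0.19, adjusted p = 0.000537). Icam1, the ligand of Itgal and Itgam, was likewise apart, at 2332, 2072 and 1946 in PEG and 5537, 7249 and 5512 in NC (log2 fold change -1.52 ± 0.14, adjusted p = 0.000515). Complement C3, whose cleavage product Itgam and Itgax bind, was at 8151, 2623 and 3306 in PEG and 28111, 39855 and 26344 in NC (log2 fold change -2.90 ± 0.38, adjusted p = 0.0015). Jam3, an adhesion molecule of tight junctions that Itgam can bind, was the one that rose (log2 fold change 0.89 ± 0.12, adjusted p = 0.0015). E-cadherin (Cdh1), the ligand of Itgae with Itgb7, and Icam2 fell as well (log2 fold change -0.85, adjusted p = 0.00397, and -0.58, adjusted p = 0.0179), with adjusted p = 0.0574 for Cdh1 without NC 1 and NC 3 together. In PEG against Unop, 1 of the 9 was higher and 5 were lower, with Cdh1 at -4.58 and C3 at 2.85 on the log2 scale. In NC against Unop, 3 were higher and 4 lower, with C3 at 5.76 and Cdh1 at -3.73.

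Of the 17 matrix integrins 10 rose in PEG against NC, 1 fell and 6 were not called, beside 15.0% of all genes higher and 13.9% lower. The median log2 fold change was 0.61 beside 0.002 over all genes. The count of 10 was 5 without PEG 2 and 6 without NC 2, and the 1 that fell, Itgb6, lost its call in most fits that left out a library, as given with its counts. Itgb1, the beta chain that collagen, laminin and fibronectin receptors share, had 39980.2, 50823 and 41383 in PEG, 29244, 32069 and 31344 in NC, and 33312 and 32643 in Unop. All PEG libraries exceeded all NC libraries, by 1.42-fold (log2 fold change 0.51 ± 0.12, adjusted p = 0.0185), and the call was lost without PEG 2, the highest library (adjusted p = 0.0622 without PEG 2), and without NC 1 and NC 3 together (0.155). Itgav, the alpha chain of vitronectin receptors and of integrins that release active TGF-beta, had 2429, 3382 and 2600.3 in PEG, 1118, 1301 and 1538 in NC, and 1690.3 and 2236 in Unop. It was 2.12-fold higher in PEG, with no overlap (log2 fold change 1.08 ± 0.17, adjusted p = 0.00315).

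The beta chains that pair with Itgav gave 3 of 4 higher and 1 lower. Itgb5, which completes a vitronectin receptor, had 2267, 2314 and 2251 in PEG, 1191, 1175 and 1648 in NC, and 2327 and 2542 in Unop. The PEG libraries lay close together above NC (log2 fold change 0.79 ± 0.13, adjusted p = 0.00396). Itgb8, whose pair with Itgav activates latent TGF-beta, had 6776, 6882 and 5738 in PEG, 4116, 2768 and 3005 in NC, and 2257 and 3437 in Unop, also with no overlap (log2 fold change 0.99 ± 0.19, adjusted p = 0.00722). Itgb3, which pairs with Itgav on many cells and with Itga2b on platelets, had 516, 664 and 582 in PEG, 358, 344 and 457 in NC, and 207 and 221 in Unop. Its difference was smaller, with PEG and NC still apart (log2 fold change 0.61 ± 0.15, adjusted p = 0.0193), and adjusted p was 0.0545 to 0.0789 when PEG 2, PEG 3 or NC 2 was left out.

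Itgb6 was the one matrix integrin that fell, and its call rested on single libraries. This beta chain of epithelia pairs with Itgav and activates TGF-beta. Its normalized read count was 22.2, 3.74 and 10.3 in PEG, 733, 17.2 and 339.6 in NC, and 37.6 and 15.0 in Unop. NC 1 and NC 3 were high, while NC 2 lay inside the PEG range. The fitted difference was large and imprecise (log2 fold change -3.94 ± 1.26, adjusted p = 0.048, 95% confidence interval -6.84 to -1.05). Its adjusted p was 0.0644 to 0.153 when PEG 1, PEG 2, PEG 3, NC 1, NC 3, Unop 1 or Unop 2 was left out. NC 1 and NC 3 are the libraries with high skeletal muscle transcripts. Without both of them the log2 fold change was -0.76 with adjusted p = 0.606. Mylpf, a light chain of fast muscle myosin, had 2085, 289 and 748 in PEG, 118277, 2184 and 35868 in NC, and 5537 and 969 in Unop, so its highest libraries were the same. The part of muscle tissue in the Itgb6 values was not tested.

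**Figure D3:**
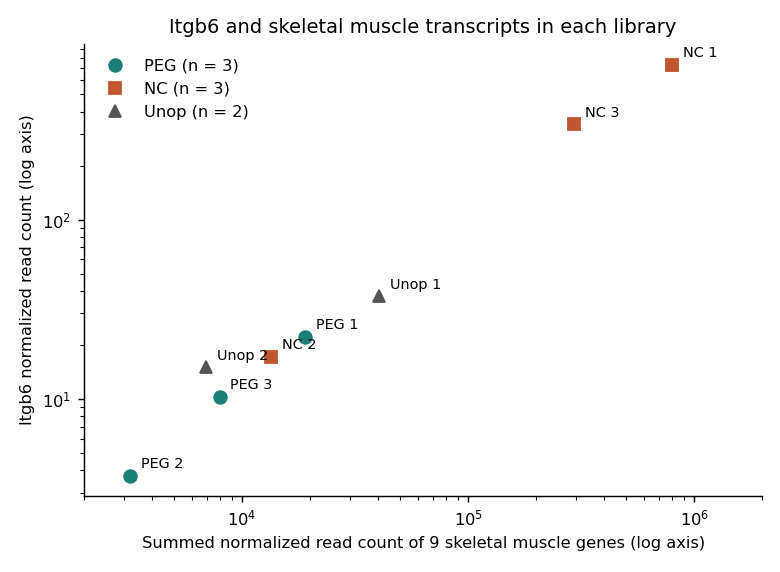
Normalized read count of Itgb6 (vertical, log axis) against the summed normalized read count of 9 skeletal muscle genes (horizontal, log axis) in each of the 8 libraries, labelled by name. NC 1 and NC 3 stand apart at the upper right, and NC 2 lies among the PEG and Unop libraries.

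Among laminin-binding subunits, Itga6 and Itga7 rose in PEG against NC and Itga3 and Itgb4 were not called. Itga7, which pairs with Itgb1 on muscle and Schwann cells, had 5806, 6422 and 6189 in PEG, 2942, 3019.7 and 3081 in NC, and 4659.9 and 4838 in Unop. Its libraries within a group were close, NC 1 and NC 3 included, and the 2.03-fold rise was the matrix integrin difference with the smallest adjusted p (log2 fold change 1.03 ± 0.07, adjusted p = 0.000343). Itga6 pairs with Itgb1 in immature Schwann cells and with Itgb4 in myelinating ones. Its count was 7432, 7973 and 6930.5 in PEG, 4728, 3394 and 3226 in NC, and 24204 and 29464 in Unop. The rise over NC was 1.99-fold (log2 fold change 1.00 ± 0.15, adjusted p = 0.00288), and both kinds of PNA stayed far below the unoperated nerves.

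Itgb4, which pairs with Itga6 alone and sits on the outer face of myelinating Schwann cells, had the largest fall of any subunit against Unop. Its count was 2848, 2724 and 2907 in PEG, 2804, 1959 and 1744 in NC, and 61011 and 53989 in Unop. Unop exceeded PEG 20.3-fold (log2 fold change -4.34 ± 0.18, adjusted p = 1.37e-06) and exceeded NC 27.0-fold (log2 fold change -4.76 ± 0.18, adjusted p = 7.22e-07). PEG and NC overlapped through NC 1 (log2 fold change 0.41 ± 0.16, adjusted p = 0.0918, 95% confidence interval 0.04 to 0.78). Without NC 1 the difference was called (log2 fold change 0.61, adjusted p = 0.00465). NC 1 was also the NC library with the most Drp2, a gene of myelinating Schwann cells, at 799, 228 and 207 in NC 1 to NC 3 against 494, 443 and 469.98 in PEG, and the part of myelinated tissue in NC 1 was not tested. Itga6 was likewise lower than Unop in PEG (log2 fold change -1.84 ± 0.17, adjusted p = 4.58e-05) and in NC (log2 fold change -2.84 ± 0.17, adjusted p = 3.41e-06). Itga7 was above Unop in PEG (log2 fold change 0.37 ± 0.08, adjusted p = 0.0045) and below it in NC (log2 fold change -0.66 ± 0.08, adjusted p = 0.000153). Itga3 was lower than Unop in PEG (log2 fold change -0.45 ± 0.16, adjusted p = 0.0396) and not called in NC (log2 fold change -0.29 ± 0.16, adjusted p = 0.142). In PEG against Unop the adjusted p of Itga3 was 0.0515 to 0.183 when PEG 1, PEG 2, PEG 3, NC 3, Unop 1 or Unop 2 was left out.

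**Figure D4:**
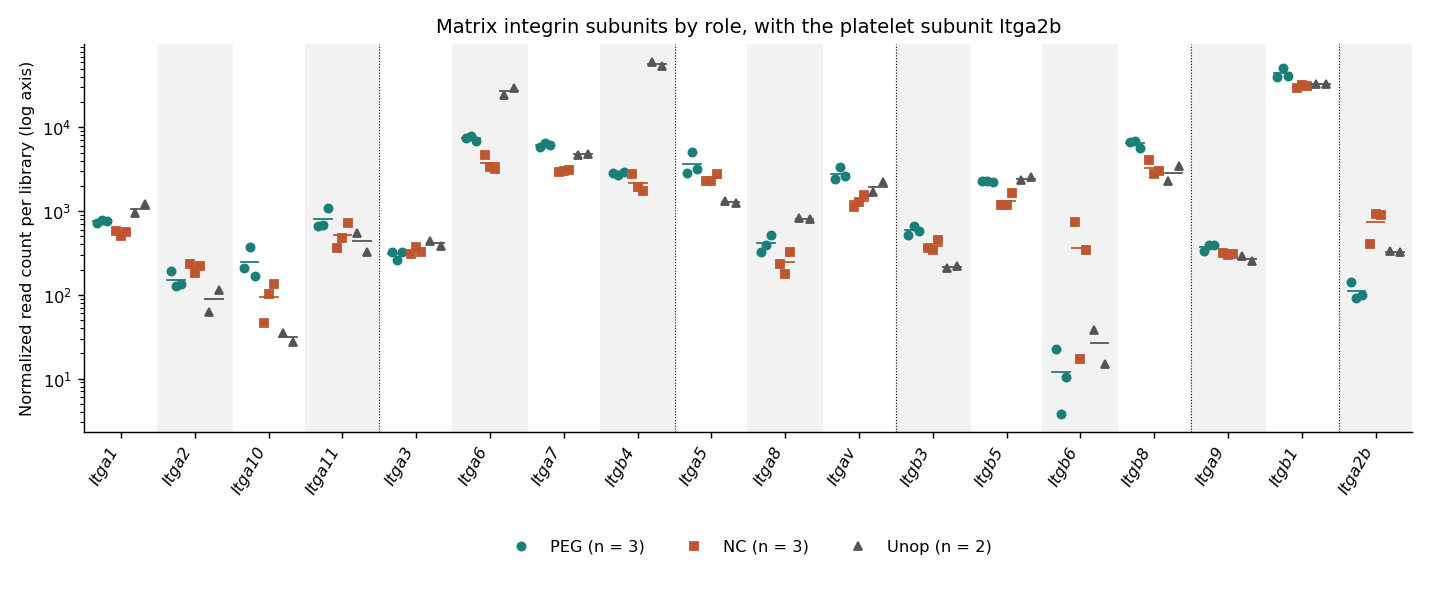
Normalized read counts (log axis) of the 17 matrix integrin subunits and of Itga2b in each library (3 PEG, 3 NC and 2 Unop, points) with group means (bars); dotted lines part the roles, from left to right collagen-binding alpha, laminin-binding, fibronectin- and vitronectin-binding alpha, beta partners of Itgav, other, and platelet. Unop stands far above both PNAs for Itga6 and Itgb4, and PEG stands above NC for Itga7, Itgav, Itgb5 and Itgb8.

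Collagen-binding alpha chains, which all pair with Itgb1, gave 2 of 4 higher in PEG than in NC. Itga1, a receptor for basement membrane collagen, had 721, 788 and 769 in PEG, 575, 508 and 568 in NC, and 941 and 1201 in Unop, a small difference without overlap (log2 fold change 0.46 ± 0.12, adjusted p = 0.0194). Itga10, a collagen receptor of cartilage cells, had 210.4, 371 and 167 in PEG, 46.5, 101 and 133 in NC, and 35.4 and 27.5 in Unop. Its PEG libraries spread widely, from 167 in PEG 3 to 371 in PEG 2, all above the highest NC library (log2 fold change 1.45 ± 0.43, adjusted p = 0.0363). Both calls were fragile: adjusted p of Itga1 was 0.0544 to 0.0728 when PEG 2, PEG 3 or NC 2 was left out, and that of Itga10 was 0.0541 to 0.126 when PEG 1, PEG 2, NC 1, NC 2, Unop 1 or Unop 2 was left out. Without NC 1 and NC 3 together it was 0.0572 for Itga1 and 0.113 for Itga10. Itga2 and Itga11 were not called (log2 fold change -0.50, adjusted p = 0.198, and 0.66, adjusted p = 0.148).

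Of the fibronectin-binding alpha chains, Itga8 rose beside Itgav and Itga5 was not called. Itga8, which pairs with Itgb1 and binds nephronectin, had 322, 395 and 522 in PEG, 231, 175 and 327 in NC, and 822 and 800.5 in Unop. PEG 1 lay just below NC 3, so the groups overlapped (log2 fold change 0.77 ± 0.25, adjusted p = 0.0481), and adjusted p was 0.0723 to 0.151 when PEG 2, PEG 3, NC 1, NC 2, Unop 1 or Unop 2 was left out. Itga5, the classical fibronectin receptor chain, was higher in each PEG library than in any NC library, at 2888, 5022 and 3165 against 2308, 2296 and 2793, without passing the threshold (log2 fold change 0.54 ± 0.20, adjusted p = 0.0692). It passed without PEG 1 (adjusted p = 0.0437) and in DESeq2 (0.0236). Itga9, a tenascin receptor chain, was not called (log2 fold change 0.27 ± 0.13, adjusted p = 0.148).

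Against Unop, 9 of the 17 matrix integrins were higher and 5 lower in PEG, beside 29.1% and 28.6% of all genes tested. In NC 4 were higher and 7 lower, beside 32.2% and 32.3%. The medians were 0.41 in PEG and -0.10 in NC. In PEG the 9 became 5 without PEG 3, and the 5 became 3 without Unop 1 and 2 without Unop 2, while in NC the 4 became 2 without NC 1 and NC 3 together. Itgb3 was 2.72-fold higher in PEG (log2 fold change 1.44 ± 0.17, adjusted p = 0.000156) and 1.79-fold higher in NC (log2 fold change 0.84 ± 0.17, adjusted p = 0.00248). Itga10 was 7.34-fold higher in PEG (log2 fold change 2.88 ± 0.48, adjusted p = 0.00107) and Itga5 2.81-fold higher (log2 fold change 1.49 ± 0.22, adjusted p = 0.000545). Itgb8 was above Unop in PEG (log2 fold change 1.21 ± 0.21, adjusted p = 0.00153) and not called in NC (log2 fold change 0.22 ± 0.21, adjusted p = 0.391). Itga1 and Itga8 were below Unop in both kinds of PNA, by -0.49 and -1.002 in PEG and by -0.95 and -1.77 in NC on the log2 scale. Itgb5 was not called against Unop in PEG (log2 fold change -0.09 ± 0.15, adjusted p = 0.604, 95% confidence interval -0.43 to 0.24) and lower in NC (log2 fold change -0.88 ± 0.15, adjusted p = 0.000892). Itgav, Itgb1 and Itga9 differed from Unop by at most 0.51 in PEG, and these calls were lost on leaving out single libraries. Adjusted p of Itgav was 0.0586 to 0.302 when PEG 2, PEG 3, NC 2 or Unop 1 was left out. That of Itgb1 was 0.0563 to 0.106 when PEG 2, PEG 3, Unop 1 or Unop 2 was left out, and that of Itga9 was 0.0679 to 0.109 when PEG 2, PEG 3 or Unop 2 was left out.

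Other calls against Unop also rested on single libraries. Itga2 was higher than Unop in PEG (log2 fold change 0.81, adjusted p = 0.0455) with adjusted p of 0.0501 to 0.328 when PEG 1, PEG 3, NC 1, NC 2, NC 3 or Unop 1 was left out. It was higher in NC as well (log2 fold change 1.31, adjusted p = 0.0049), with adjusted p = 0.0705 without NC 1 and NC 3 together. For Itga1 in PEG against Unop adjusted p was 0.081 without Unop 2, and for Itga8 it was 0.0709 without Unop 1 and 0.0624 without Unop 2. In NC against Unop, adjusted p was 0.0649 to 0.14 when NC 2, NC 3, Unop 1 or Unop 2 was left out for Itga10 and 0.0542 to 0.209 when NC 1, NC 2 or Unop 2 was left out for Itgav. Itga11 missed the threshold in PEG against Unop (log2 fold change 0.91, adjusted p = 0.0516) and passed it with adjusted p of 0.0344 to 0.0401 when NC 1, NC 3 or Unop 1 was left out.

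Itga2b, the alpha chain of the platelet fibrinogen receptor, was 6.26-fold lower in PEG than in NC, the largest called fall after Itgb6 (log2 fold change -2.65 ± 0.32, adjusted p = 0.00121). Its normalized read count was 144, 92.6 and 100.4 in PEG, 407, 928 and 888 in NC, and 329 and 326 in Unop. The 3 PEG libraries were the lowest of the 8, below Unop as well (log2 fold change -1.57 ± 0.36, adjusted p = 0.0055), and NC lay above Unop (log2 fold change 1.08 ± 0.36, adjusted p = 0.0266). In NC against Unop adjusted p was 0.0702 to 0.103 when NC 2, NC 3, Unop 1 or Unop 2 was left out, while the other calls of Itga2b held. Of 9 other platelet and megakaryocyte genes, 5 passed the filter, with 1 higher (Pf4) and 1 lower (Gp9) in PEG against NC. Libraries of PEG and NC did not overlap in 2 of the 5, higher in PEG (Pf4 and Treml1), and in 1, lower in PEG (Gp9). Treml1 was at 56.5 to 77.9 in PEG and 29.5 to 48.2 in NC. The platelet glycoproteins Gp1bb and Gp5 were at 0 in every library and Gp9 was at 4.63 to 17.2. Cldn5, a claudin of endothelium, was also at 0 in every library, so such a 0 is not read as absence of platelets. The part of platelets in the values of Itga2b was not tested.

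Laminin chains rose in PEG against NC in 5 of 10 cases and fell in none by limma (none at an unadjusted p under 0.05, none in edgeR and 1, Lamb3, in DESeq2), and the other 5 were not called. The median log2 fold change was 0.61 beside 0.002 over all genes. The 5 were Lama2, Lama4, Lamb1, Lamb2 and Lamc1, the chains of Schwann cell and vascular basement membranes. Lama2, whose loss causes muscular dystrophy with defective myelin, had 4571, 6053 and 5745 in PEG, 3742, 2309 and 2575 in NC, and 12129 and 16731 in Unop. PEG exceeded NC 1.93-fold with no overlap (log2 fold change 0.95 ± 0.20, adjusted p = 0.011). Lama4, a chain of endothelial and young Schwann cell basement membranes, had 9979.8, 13015 and 10569 in PEG, 7595, 6656 and 7258 in NC, and 10253 and 12127 in Unop. PEG libraries spanned the range of Unop and were all above NC (log2 fold change 0.63 ± 0.12, adjusted p = 0.00712).

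Of the beta chains, Lamb1 had 9376, 12987 and 11004 in PEG, 7716, 5969 and 6811 in NC, and 15065 and 19917 in Unop, with PEG above NC (log2 fold change 0.70 ± 0.16, adjusted p = 0.0142). Its adjusted p was 0.0545 without PEG 2. Lamb2, the beta chain of neuromuscular junctions and of the kidney filter, had 7842, 8607 and 8551 in PEG, 6472, 5409 and 5704 in NC, and 24685 and 27229 in Unop. Its libraries were tight within groups (log2 fold change 0.51 ± 0.10, adjusted p = 0.00647). Lamc1, the gamma chain of most laminins, had 12522, 15653 and 14690.2 in PEG, 10778, 8477 and 9468 in NC, and 17591 and 19505 in Unop, and here too every PEG library exceeded every NC library (log2 fold change 0.58 ± 0.12, adjusted p = 0.0108). The rises of these 5 chains lay between 0.51 and 0.95 on the log2 scale, so none passed the further condition of a log2 fold change beyond 1. Without NC 1 and NC 3 the count of 5 was the same. In PEG against NC, 5 of 10 Schwann cell, 4 of 8 fibroblast and 4 of 5 mural cell markers were called higher and none lower. The log2 fold changes of the Schwann cell markers ran from -0.78 to 1.45, so some went the other way. The part of these cell types in the 5 chains was not tested.

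**Figure D5:**
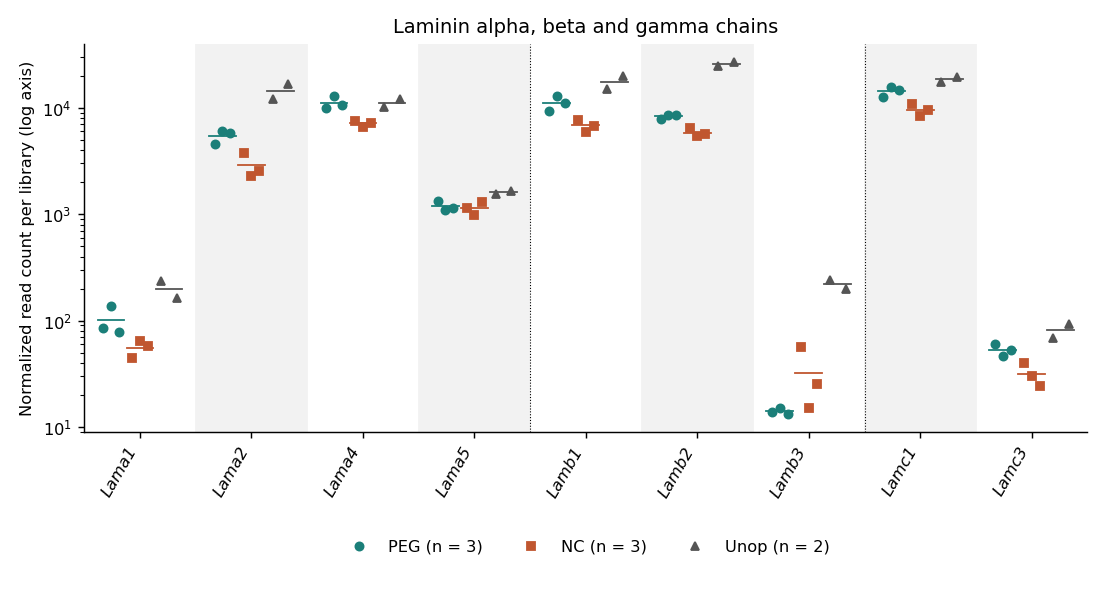
Normalized read counts (log axis) of 9 of the 10 laminin chains in each library (3 PEG, 3 NC and 2 Unop, points) with group means (bars); dotted lines part alpha, beta and gamma chains. For Lama2, Lamb1, Lamb2 and Lamc1 the order from high to low is Unop, PEG, NC without overlap, and Lamb3 is far lower in both PNAs than in Unop.

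The other chains had low counts or small differences. Lamb3, which forms the laminin of epidermal basement membranes, had 13.9, 15.0 and 13.1 in PEG, 56.3, 15.1 and 25.1 in NC, and 243 and 199 in Unop. It was 14.7-fold lower in PEG than in Unop (log2 fold change -3.88 ± 0.48, adjusted p = 0.000217) and 7.65-fold lower in NC (log2 fold change -2.94 ± 0.48, adjusted p = 0.000808). All PEG libraries lay below all NC libraries, with PEG 2 just under NC 2, and the difference was not called (log2 fold change -0.95 ± 0.43, adjusted p = 0.135). It was called without NC 2 (log2 fold change -1.37, adjusted p = 0.0315) and in DESeq2 (-1.21, 0.0493). Lama5, of vascular basement membranes, differed little between PEG and NC (log2 fold change 0.06 ± 0.12, adjusted p = 0.735, 95% confidence interval -0.22 to 0.35). Lama1 and Lamc3, at 44.7 to 234 and 24.1 to 92.6 normalized read counts, missed the threshold in PEG against NC (log2 fold change 0.81, adjusted p = 0.0608, and 0.76, adjusted p = 0.0626). Lama1 passed it in DESeq2 (adjusted p = 0.0322) and Lamc3 without NC 1 (0.0394).

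Against Unop, no laminin chain was higher in either PNA by limma, edgeR or DESeq2, nor at an unadjusted p under 0.05, 7 of 10 were lower in PEG and 9 in NC, and the medians were -0.62 and -1.35. The 7 became 4 without PEG 3, without Unop 1 or without Unop 2. Lamb2 fell 3.11-fold in PEG (log2 fold change -1.64 ± 0.11, adjusted p = 7.84e-06) and 4.43-fold in NC (log2 fold change -2.15 ± 0.11, adjusted p = 1.57e-06). Lama2 fell 2.63-fold in PEG (log2 fold change -1.39 ± 0.23, adjusted p = 0.00101) and 5.06-fold in NC (log2 fold change -2.34 ± 0.23, adjusted p = 4.04e-05). Lamb1 was lower in PEG (log2 fold change -0.65 ± 0.18, adjusted p = 0.0137) and in NC (log2 fold change -1.35 ± 0.18, adjusted p = 0.000242). Lama4 did not separate PEG from Unop (log2 fold change -0.005 ± 0.14, adjusted p = 0.979, 95% confidence interval -0.32 to 0.31) and was lower in NC (log2 fold change -0.64 ± 0.14, adjusted p = 0.00355). In PEG against Unop, the calls of 4 chains hung on single libraries. Adjusted p of Lamb1 was 0.114 without Unop 2, and that of Lama1 was 0.0671 to 0.153 when PEG 1, PEG 3 or Unop 1 was left out. For Lama5 it was 0.0637 to 0.122 when PEG 2, PEG 3, Unop 1 or Unop 2 was left out, and for Lamc1 0.0625 to 0.192 when PEG 1, PEG 3, NC 3, Unop 1 or Unop 2 was left out. Lama5 in NC against Unop had adjusted p = 0.074 without Unop 2. The summed Schwann cell markers and adipocyte markers given above were likewise lower in PNAs than in Unop, and the part of either in these falls was not tested.

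The proteins that laminin networks attach to were read beside them: 7 of 18 tested partners rose in PEG against NC (median 0.57), and none fell by limma, edgeR or DESeq2, nor at an unadjusted p under 0.05. Nid1, the nidogen that ties laminin to collagen, had 30469, 46976 and 33443 in PEG, 16316, 14916 and 17778 in NC, and 37951 and 42067 in Unop, with PEG clear of NC (log2 fold change 1.16 ± 0.17, adjusted p = 0.0023). Dag1, which encodes dystroglycan, the laminin receptor of the Schwann cell surface, had 14130.3, 18507 and 16528 in PEG, 8005, 6974 and 7299 in NC, and 27649 and 32483 in Unop, in the order Unop, PEG, NC (log2 fold change 1.14 ± 0.12, adjusted p = 0.000897). Smoc2 and the peroxidasin Pxdn, which crosslinks basement membrane collagen, also rose (log2 fold change 1.16, adjusted p = 0.00201, and 0.90, adjusted p = 0.00252). Against Unop, 2 partners were higher and 11 lower in PEG, and 2 were higher and 15 lower in NC. The largest falls were in the proteins that link dystroglycan to the cytoskeleton of myelinating Schwann cells. Drp2 had 494, 443 and 469.98 in PEG, 799, 228 and 207 in NC, and 118076 and 172406 in Unop (log2 fold change -8.25, adjusted p = 5.88e-06 in PEG and -8.73, adjusted p = 2.80e-06 in NC). Prx, or periaxin, fell by a similar size (log2 fold change -8.05, adjusted p = 3.07e-05 in PEG and -7.27, adjusted p = 3.64e-05 in NC).

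Matrix ligands of integrins other than laminin gave 5 of 12 higher in PEG against NC (median 0.70), and none lower by limma, edgeR or DESeq2, nor at an unadjusted p under 0.05. Spp1, or osteopontin, a ligand of Itgav integrins, had 92747, 109995 and 133087 in PEG, 21038, 12807 and 16517 in NC, and 125466 and 88731 in Unop, so that PEG lay with Unop and NC below (log2 fold change 2.75 ± 0.23, adjusted p = 0.000467). Fbln5, an elastic fibre protein that binds integrins, had 2447, 2925 and 2676 in PEG, 806, 766 and 809 in NC, and 3751 and 3505 in Unop (log2 fold change 1.75 ± 0.09, adjusted p = 0.000146). Edil3 and Thbs1, both ligands of Itgav pairs, were higher by 1.52 (adjusted p = 0.0107) and 1.30 (adjusted p = 0.0041) on the log2 scale. Fibronectin (Fn1) was not called between the PNAs (log2 fold change 0.66, adjusted p = 0.199). In PEG against Unop 6 of the 12 were higher and 3 lower, beside 29.1% and 28.6% of all genes tested. In NC against Unop 5 were higher and 4 lower, beside 32.2% and 32.3%. Postn had the largest change in both (4.71 and 3.98).

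Inside the cell, integrins connect to actin and to kinases through adaptors. Of 26 tested, 10 were higher and 3 lower in PEG against NC (median 0.30), beside 15.0% and 13.9% of all genes. The 3 that fell were Ptk2b, a focal adhesion kinase of blood cells, Fermt3, the kindlin of blood cells, and Apbb1ip, which recruits talin to integrins. Ptk2b had 1269.8, 987 and 1282 in PEG, 2883, 4450.5 and 3412 in NC, and 445 and 410.2 in Unop (log2 fold change -1.59 ± 0.17, adjusted p = 0.00082), and Fermt3 and Apbb1ip had log2 fold changes of -0.62, adjusted p = 0.0204, and -0.66, adjusted p = 0.0181. The last 2 calls rested on single libraries. Adjusted p of Fermt3 was 0.0529 to 0.0716 when PEG 1, PEG 2, NC 2 or NC 3 was left out, and that of Apbb1ip was 0.0517 to 0.0582 when PEG 1, PEG 3 or NC 3 was left out. Among those that rose were Lims2, an adaptor of integrin-linked kinase (log2 fold change 0.96 ± 0.15, adjusted p = 0.00333), Bcar1, a docking protein of focal adhesions (log2 fold change 0.71 ± 0.10, adjusted p = 0.0019), and Fermt2, the kindlin of most other tissues (log2 fold change 0.69 ± 0.17, adjusted p = 0.0166). For Fermt2 adjusted p was 0.0551 without PEG 2. Tln1, a talin that activates integrins, was not called (log2 fold change -0.17 ± 0.12, adjusted p = 0.339, 95% confidence interval -0.45 to 0.11). Against Unop, 9 of the 26 adaptors were higher and 7 lower in PEG, beside 29.1% and 28.6% of all genes tested. In NC 9 were higher and 12 lower, beside 32.2% and 32.3%. Parvg, the parvin of blood cells, was highest above Unop (4.68 in PEG and 4.85 in NC on the log2 scale), and Lims2 fell most (-3.73 and -4.69).

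To set leukocyte beside matrix integrins within a library, the log2 ratio of their summed normalized read counts was taken. The ratio was -1.79, -1.88 and -1.23 in PEG 1 to PEG 3, -0.71, -0.20 and -0.44 in NC 1 to NC 3, and -5.64 and -6.13 in Unop 1 and Unop 2. PEG was thus below NC in each library, by 1.18 on average (mean -1.63 ± 0.35 against -0.45 ± 0.25, SD), and both were above Unop, by 4.25 and 5.44. Two-sided exact permutation tests gave p = 0.1 for PEG against NC, the smallest that 3 against 3 libraries allow, and p = 0.2 for each comparison with Unop, the smallest that 3 against 2 allow here, so none could pass the threshold (adjusted p = 0.225 over 9 tests). Between genes such sums also depend on transcript length, so only the change of the ratio between groups is read. That change rests most on genes with high counts. In Unop these were Itgb4, Itgb1 and Itga6 among matrix integrins, with means of 57500, 32978 and 26834. Itgb1 was counted as matrix although it also pairs with Itga4. With means of log2 counts in place of sums, the differences from Unop were 2.74 in PEG and 3.95 in NC.

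Chain use within laminins was compared by the same kind of ratio. The log2 ratio of Lamb1 to Lamb2 was 0.26, 0.59 and 0.36 in PEG 1 to PEG 3, 0.25, 0.14 and 0.26 in NC 1 to NC 3, and -0.71 and -0.45 in Unop 1 and Unop 2. PEG and NC were separated only by a small step (difference 0.19, exact permutation p = 0.1), and both lay above Unop, by 0.99 in PEG and 0.80 in NC (exact permutation p = 0.2 for each). The ratio of Lama4 to Lama2 was 1.13, 1.10 and 0.88 in PEG 1 to PEG 3, 1.02, 1.53 and 1.50 in NC 1 to NC 3, and -0.24 and -0.46 in Unop 1 and Unop 2. PEG and NC overlapped (difference -0.31, exact permutation p = 0.3), and both were above Unop, by 1.39 in PEG and 1.70 in NC (exact permutation p = 0.2 for each). In each of the 6 PNA libraries both ratios were above those of both Unop libraries.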

How the data were processed

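The signal values deposited by the authors are normalized read counts, made by mapping read pairs to Rnor 6.0 (TopHat2), assigning them to genes (HTSeq-count) and dividing by the size factors of DESeq2. The deposited fold changes, test statistics and p-values of the authors' own comparisons were not used. Of the deposited values 100% were whole reads within 0.001 after multiplication by a constant per library (0.800 to 1.12), so reads were recovered for the count tests. Libraries were grouped by their titles, with 3 PEG, 3 NC and 2 Unop animals, and no per-sample column was left unmapped.

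Log2(normalized count + 1) was fitted with limma 3.58.1 (trend, group means, 8 libraries, prior degrees of freedom 3.27), which understates changes of low counts. The alternatives were edgeR 4.0.16 (quasi-likelihood, TMM factors) and DESeq2 1.42.0 on recovered reads, other filters, a pseudocount of 8, TMM rescaling, 2 groups alone, a replicate block, the condition of a log2 fold change beyond 1, and each library left out. Leaving out NC 1 and NC 3 together was chosen after their muscle transcripts were seen. Ratios of sums were compared by two-sided exact permutation tests (SciPy 1.17.1). The limma fit was tested on simulated data in R 4.3.3.

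Members and gene lists were chosen with earlier results of these data known. The counts cover all 35 members, but 1 laminin chain is not reported here on its own. Values per library are given for subunits called in PEG against NC and, against Unop, for the 3 of each role with the smallest adjusted p. From each list of partners up to 4 called genes with the largest fold change are named, and any further gene was named after its values were seen. Promoters were from RefSeq (GRCr8), with entries for 27 of 35 members. Replicates share a group label only, and limma p-values set a difference of groups against the spread between animals, moderated across genes.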

Additional observations from a re-analysis of the deposited data

How the results depend on the processing

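For the log2 fold changes of 34 subunits, fits that left out 1 library gave 816 values, of which 718 kept their direction and side of the threshold, 79 lost the call, 8 gained one and 11 turned sign. The other alternatives in tool, filter, scaling and samples gave 816 values as well, of which 780 held, 25 lost the call, 8 gained one and 3 turned sign, and leaving out NC 1 and NC 3 together gave 102, of which 87 held, 10 lost the call, 2 gained one and 3 turned sign. The count of subunits higher in PEG against NC (15) lay between 9 and 15 on leaving out single libraries, with 9 without PEG 2, and was 3 with a log2 fold change beyond 1. The count lower in PEG against Unop (13) lay between 7 and 13, with 8 without Unop 1 and 7 without Unop 2, and was 8 with a log2 fold change beyond 1. The count lower in NC against Unop (16) was 9 with that condition. A stricter condition makes fewer calls by construction. Leaving out a library moved the counts over all genes tested in either direction. Genes called higher in PEG against NC were 1363 without PEG 2, against 2477 in the main fit. Genes called lower in PEG against Unop were 4845 without NC 2, against 4713 in the main fit.

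As means of log2 counts in place of sums, the leukocyte to matrix integrin difference was 2.74 in PEG against Unop and 3.95 in NC against Unop, and the Lamb1 to Lamb2 difference in NC against Unop was 0.668 to 0.930 on leaving out single libraries. The other ratio differences moved by less than 1 SD.

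Titles number the replicates alike in each group, but nothing ties equal numbers to 1 animal or day. Deviations from group means correlated across genes at 0.108, 0.109 and -0.050 for PEG and NC of equal number, and at 0.136 to 0.157 for PEG or NC and Unop of equal number, where there are only 2 pairs and the 2 Unop libraries deviate as mirror images. PEG and NC libraries of unequal number correlated at -0.159 to 0.098. Since 1 of the 3 PEG and NC pairs of equal number was below 0.1, the numbers were not taken as pairs. That bound is a choice and not a test of pairing. With the number as a replicate block, 14 subunits were higher and 6 lower in PEG against NC, 12 and 10 in PEG against Unop, and 10 and 16 in NC against Unop. The block lost the calls of Itga10 in PEG against NC (adjusted p = 0.0596) and in NC against Unop (0.0576), of Itga2b in NC against Unop (0.0732), and in PEG against Unop of Lamc1 (0.0923), Itga3 (0.0793), Itgb1 (0.0556), Lama1 (0.0614), Itga9 (0.0656) and Itga2 (0.0961). The block changed no other call of a subunit.

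Signs turned only where the main value was not called. Lama4 in PEG against Unop was 0.0178 in edgeR, 0.0136 with TMM rescaling and 0.0084 with the replicate block. Without NC 1 and NC 3, Itgb2 in PEG against NC was -0.28, Itgb8 in NC against Unop -0.0089 and Itgb6 in NC against Unop -0.45. On leaving out single libraries, log2 fold changes in PEG against NC ran from -0.17 to 0.24 for Itgb2, -0.66 to 0.0346 for Itgax, -0.0396 to 0.17 for Lama5, -0.21 to 0.34 for Vtn, -1.23 to 0.0412 for Prx and -0.17 to 0.20 for Bcam. In PEG against Unop they ran from -0.13 to 0.12 for Lama4, -0.11 to 0.12 for Smoc2, -0.34 to 0.0698 for Vcam1, -0.0157 to 0.26 for Icam1 and -0.18 to 0.32 for Spp1. In NC against Unop they ran from -0.082 to 0.52 for Itgb8, -0.13 to 0.63 for Itga11 and -0.30 to 0.14 for Thbs1. For all of these the cause was not tested.

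With the tool, filter, scaling or samples fitted, these subunit calls were lost in PEG against NC: Itgb6 (adjusted p = 0.0579 with no filter, 0.052 with a pseudocount of 8, 0.0724 with only the 2 groups), Itga8 (0.0537 in edgeR, 0.0576 with no filter, 0.0746 with 2 groups) and Itga10 (0.0541 with 2 groups). Lost in PEG against Unop were Lamc1 (0.069 in edgeR, 0.057 with no filter, 0.0554 with TMM rescaling), Itga2 (0.0579 in edgeR, 0.0562 with no filter, 0.0725 with 2 groups), Itgav (0.058 with no filter), Itga3 (0.051 with 2 groups) and Itgb1 (0.0596 with 2 groups). Gained were Itga11 in PEG against Unop (0.0226 in DESeq2, 0.0489 with TMM rescaling, 0.0364 with 2 groups) and, in PEG against NC in DESeq2, Lamb3, Lama1 and Itga5, as given above. Itgb6 in NC against Unop was called by edgeR (0.0372) and DESeq2 (0.0106) and not by limma. With 2 Unop libraries, each comparison with Unop rests on a spread estimated mainly from PEG and NC, and a fit without 1 Unop library assumes that the remaining one varies like the other groups.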

Other observations

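Further cell types were also read from marker lists, and their part in the values of the subunits was not tested. Perineurial genes were lower than in Unop in 3 of 3 tested cases in both PNAs, with Cldn1, a tight junction claudin of the perineurium, at 1318, 1495 and 1587 in PEG, 1764, 749.8 and 182 in NC, and 18783 and 14248 in Unop. Its counts spread widely in NC, where NC 3 held the fewest. Mast cell genes were lower than in Unop in 5 of 6 cases in PEG and in 5 of 6 in NC, with the protease Cma1 at 84.3, 243 and 69.4 in PEG, 115, 101 and 174 in NC, and 2668 and 1475 in Unop, and Kit, which other cells also express, was called higher in NC (log2 fold change 0.76, adjusted p = 0.0258). Pf4, a chemokine of platelets and some macrophages, was higher in PEG than in NC (log2 fold change 1.16 ± 0.23, adjusted p = 0.00794), at 4769, 4045 and 5879.9 in PEG, 1965, 2077 and 2479 in NC, and 1152 and 615 in Unop, while Itga2b was lower in the same comparison.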
